A study of Mus musculus with 6 samples.

Results

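The genes described here encode the proteins of the mitochondrial ribosome. They were taken by symbol from a table of 24964 genes: every symbol beginning Mrpl or Mrps and followed by a digit, with pseudogenes (-ps) left out, gave 78 genes, 49 for the large subunit (Mrpl) and 29 for the small subunit (Mrps). The symbol rule used no measured value, but members were chosen with earlier results of these data known. Expression was measured by RNA-seq of total RNA from luminal epithelium, the cell layer lining the uterine cavity, cut out of the mouse uterus by laser capture on pregnancy day 4 after mating with stud males. The females had been kept with littermates until 8 weeks of age. The 3 control samples (Foxo1ff) came from Foxo1f/f females, whose Foxo1 alleles are floxed and which carry no Cre. The 3 deleted samples (Foxo1dd) came from Pgrcre/+Foxo1f/f females, which have the same floxed alleles and 1 copy of Cre inserted at Pgr, the progesterone receptor gene. Cre from this allele is made in cells that express Pgr, so deletion is not limited to the luminal epithelium, and Foxo1 is not the single difference, because the groups also differ at Pgr. No group with Cre and intact Foxo1 alleles was analysed here. The labels call the samples bioreplicates and do not say how many animals went into each. A p-value therefore reflects variation between these samples, which may be partly technical.

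Mitochondria keep a small genome that encodes core subunits of the respiratory chain, and a ribosome of their own translates those messages. All protein parts of that ribosome are encoded in the nucleus, made in the cytosol and imported, and then assembled on ribosomal RNA made inside the organelle. The small subunit binds the messenger RNA and reads its codons, while the large subunit joins the amino acids and feeds the new chain through an exit tunnel towards the inner membrane. Many of these proteins have bacterial homologs, and others occur only in mitochondria.

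The regions around the start sites, which the choice by symbol did not use, were searched for 5 motifs, and no motif was in most of them. RefSeq promoter windows (GRCm38.p6, 250 bases before to 50 bases after a start) were found for 69 of the 78 genes, 75 windows in all, since a few genes have more than 1. Each was searched on both strands, and the ETS and YY1 motifs can share letters where they meet, as can the YY1 and NRF1 motifs. The motif CCGGAAG, bound by ETS factors such as GABPA, was in 26 of the 75 windows (34.7%), against 18.7% of 11408 windows of tested genes and 8.86% of all 32851 windows. The NRF1 motif (GCGCA, then any base, then GCGC) was in 13 (17.3%), against 10.3% and 4.60%, and AAGATGGCG, the YY1 motif, in 8 (10.7%), against 3.21% and 1.403%. GTAAACA, a forkhead motif of the kind FOXO proteins bind, was in 2 windows (2.67%), those of Mrpl40 and Mrpl44, against 2.56% and 3.65%. CACGTG, the E-box bound by MYC, was in 7 (9.33%) of 5 genes, against 10.3% and 7.15%. A match is a run of letters and not a site at which binding was measured. The stretches below are the parts of the 250 bases before a start that hold no annotated exon, printed in the direction of the named gene with the motif in capitals on whichever strand it lies. Mrps22 (chr9:98601680-98601929, minus strand) and Mrps27 (chr13:99344706-99344766, plus strand, the exon-free stretch between it and its head-to-head neighbour Ptcd2) are shown because both genes fell, and Mrpl52 (chr14:54426659-54426908, plus strand) because it has the same ETS motif and was not called.
Mrps22: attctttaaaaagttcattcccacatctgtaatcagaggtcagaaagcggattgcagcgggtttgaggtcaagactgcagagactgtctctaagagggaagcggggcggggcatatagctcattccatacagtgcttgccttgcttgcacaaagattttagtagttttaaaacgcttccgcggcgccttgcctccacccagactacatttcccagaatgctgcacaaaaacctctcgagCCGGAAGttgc
Mrps27: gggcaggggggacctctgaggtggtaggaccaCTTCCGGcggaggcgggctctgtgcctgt
Mrpl52: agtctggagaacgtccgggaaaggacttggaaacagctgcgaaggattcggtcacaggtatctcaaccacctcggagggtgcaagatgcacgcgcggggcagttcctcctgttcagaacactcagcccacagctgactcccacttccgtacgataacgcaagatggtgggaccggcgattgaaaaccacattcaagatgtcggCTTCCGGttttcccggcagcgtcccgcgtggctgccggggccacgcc
Mrpl12 (chr11:120484387-120484612, plus strand) shows the NRF1 motif in a gene that was not called.
Mrpl12: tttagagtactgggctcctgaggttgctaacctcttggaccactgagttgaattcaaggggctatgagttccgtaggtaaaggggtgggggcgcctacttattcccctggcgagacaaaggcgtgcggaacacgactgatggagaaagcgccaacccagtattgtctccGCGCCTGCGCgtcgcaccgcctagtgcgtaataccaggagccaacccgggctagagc

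The first question was how the small-subunit genes differed between the genotypes. Most were lower in Foxo1dd. Values are FPKM, a level corrected for gene length and library depth, and a change is the limma difference of log2(FPKM + 1), Foxo1dd minus Foxo1ff, with its standard error. A gene was called where the Benjamini-Hochberg adjusted p was under 0.05, over all 11427 genes whose 6 samples averaged 1 FPKM or more, and all 78 members were above that minimum. Across the genome, 56.4% of tested genes were called. Of the 29 small-subunit genes, 17 fell (58.6%), 2 rose (6.90%) and 10 did not pass the test. Over all tested genes 34.2% fell and 22.2% rose. The median change was -0.45 for the small subunit and -0.15 for all tested genes. The falls were modest, from 1.24-fold to 2.09-fold in group means with a median of 1.66-fold, and only Mrps22 was both called and changed by at least 1 on the log2 scale, a size reached with a call by 27.0% of all tested genes. Because each sample is a bulk extract, less RNA per cell and fewer cells that make it cannot be told apart.

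Mrps22 (chr9:98588730-98601660, minus strand), a mitochondria-specific protein of the small subunit, had the largest fall of its subunit. Its level was 28.6, 36.8 and 31.1 FPKM in the Foxo1ff samples and 17.2, 14.4 and 14.5 FPKM in the Foxo1dd samples. The lowest Foxo1ff sample stood well above the highest Foxo1dd sample, and the change was -1.02 ± 0.14 (limma adjusted p = 0.000289). Mrps12 (chr7:28739641-28741820, minus strand) lies at the decoding centre, where codon and anticodon meet. It went from 59.6, 57.0 and 53.7 FPKM to 29.5, 29.9 and 31.5 FPKM, a change of -0.88 ± 0.11 (limma adjusted p = 0.000142), with little spread inside either group. Mrps5 (chr2:127587222-127606829, plus strand), homolog of a bacterial protein at the messenger RNA entry site, was at 33.43, 29.02 and 29.04 FPKM in Foxo1ff and at 16.8, 14.1 and 18.0 FPKM in Foxo1dd (-0.87 ± 0.14, limma adjusted p = 0.000587). Again no Foxo1dd sample reached the control range. Mrps27 (chr13:99344786-99415562, plus strand), a pentatricopeptide repeat protein, was at 23.4, 23.1 and 20.4 FPKM against 12.45, 11.68 and 12.05 FPKM (-0.83 ± 0.12, limma adjusted p = 0.000431). Its 3 Foxo1dd values lay within 1 FPKM of each other. Exons of Mrps27 overlap an annotated gene on the other strand, as do those of Mrps30, Mrps18b, Mrps25 and Mrps26, and the strand setting of the authors' counting is not given in the sources used here.

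Mrps6 (chr16:92058270-92112227, plus strand) was the most abundant of all 78 members in Foxo1ff. It was at 293, 349 and 335 FPKM there and at 193, 207 and 118 FPKM in Foxo1dd, a change of -0.95 ± 0.20 (limma adjusted p = 0.00355). The Foxo1dd 3 sample was the lowest by a wide margin, and the groups did not overlap. The value is uncertain because Mrps6 shares exon bases on the same strand with Slc5a3, an inositol transporter gene. Slc5a3 itself fell from 102 ± 6.86 to 10.6 ± 4.47 FPKM (SD, n = 3 each; log2 change -3.22, limma adjusted p = 7.07e-06), and the part of the Mrps6 change that came with those shared bases was not tested.

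Mrps18a, Mrps18b and Mrps18c are 3 paralogs of a single bacterial protein. Mrps18b fell, from 45.3, 44.5 and 39.6 FPKM to 25.6, 21.9 and 26.4 FPKM (-0.78 ± 0.13, limma adjusted p = 0.000664). Mrps18a, whose product sits in the large subunit despite its symbol, went from 119, 134 and 126 FPKM to 91.4, 114 and 88.4 FPKM (-0.37 ± 0.13, limma adjusted p = 0.0333). Its highest Foxo1dd sample came close to the control range, and the call was lost under 7 of the 16 alternative settings, with an adjusted p of up to 0.257. Mrps18c was at 47.9, 61.7 and 67.9 FPKM in Foxo1ff and at 65.3, 77.5 and 50.8 FPKM in Foxo1dd, overlapping ranges (0.12 ± 0.18, limma adjusted p = 0.605), and it shares exon bases on the same strand with the predicted gene Gm43511. The differences between the paralogs were not tested. Mrps30 (chr13:118378381-118387252, minus strand) is likewise named for the small subunit and sits in the large. It was at 45.8, 46.4 and 51.0 FPKM in Foxo1ff against 26.6, 31.3 and 21.1 FPKM in Foxo1dd (-0.85 ± 0.15, limma adjusted p = 0.00129).

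The 2 small-subunit genes that rose were Mrps16 and Mrps26. Mrps16 (chr14:20389304-20393634, minus strand), which has a bacterial homolog, was at 18.3, 25.6 and 28.0 FPKM in Foxo1ff and at 38.4, 38.5 and 36.3 FPKM in Foxo1dd (0.65 ± 0.16, limma adjusted p = 0.00727). Mrps26 (chr2:130563742-130568695, plus strand), a mitochondria-specific protein, was at 31.9, 43.1 and 37.6 FPKM against 49.9, 73.6 and 63.2 FPKM (0.71 ± 0.17, limma adjusted p = 0.0063). All Foxo1dd samples were above all Foxo1ff samples for both genes, and both kept their call under all 16 alternatives. Mrps7, of the head of the subunit, had means of 41.3 ± 2.17 FPKM in Foxo1ff against 47.2 ± 4.30 FPKM in Foxo1dd (SD, n = 3 each; limma adjusted p = 0.22), and Mrps34 of 52.1 ± 3.07 and 63.6 ± 10.6 FPKM (SD, n = 3 each; limma adjusted p = 0.125). Neither passed the test. Exons of Mrps34 are shared on the same strand with Nme3, and 1309 of its 2064 exonic bases overlap Mapk8ip3 on the other strand. Those of Mrps7 overlap Gga3 and Mif4gd on the other strand. The lowest level of the subunit belonged to Mrps25, at 5.45 ± 0.467 FPKM in Foxo1ff against 4.04 ± 0.360 FPKM in Foxo1dd (SD, n = 3 each; limma adjusted p = 0.0764). Mrps36, now known as a component of the 2-oxoglutarate dehydrogenase complex and not of the ribosome, stood at 21.3, 22.7 and 18.0 FPKM against 14.71, 23.85 and 20.02 FPKM, with overlapping groups (limma adjusted p = 0.681). The plot of single-sample values shows these patterns for 12 members of both subunits.

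**Figure D1:**
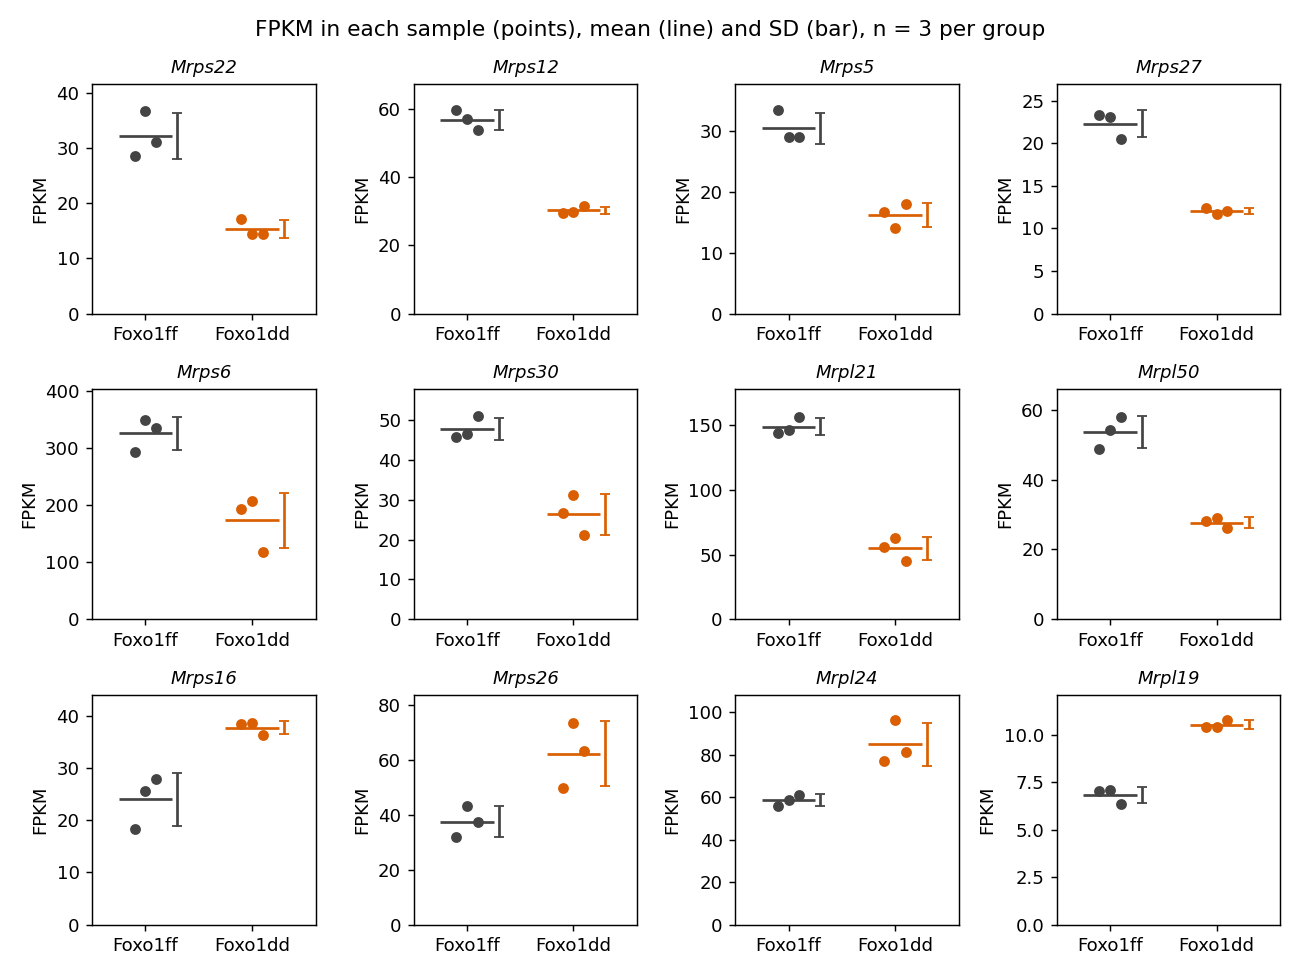
FPKM in each of the 6 samples (points) for 12 members, Foxo1ff beside Foxo1dd, with lines for the group means and bars for the SD (n = 3). In every panel the 3 Foxo1dd points lie wholly on one side of the 3 Foxo1ff points. The 12 were picked from the largest falls and rises among called members, so this separation is not a separate result. Groups did not overlap for 64.2% of all tested genes.

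A smaller share of the large-subunit genes was called. Of the 49, 15 fell (30.6%, against 34.2% of all tested genes), 5 rose (10.2%, against 22.2%) and 29 did not pass the test, and the median change was -0.24. The share that fell is near that of all tested genes. Falls ranged from 1.30-fold to 2.72-fold with a median of 1.51-fold, and rises from 1.41-fold to 1.56-fold. The 29 uncalled genes had changes from -0.40 to 0.35. Groups did not overlap for 19 genes that were lower and 6 that were higher in Foxo1dd, against 39.0% and 25.3% of all tested genes (64.2% in either direction). In the small subunit the same counts were 21 and 3. Single libraries moved the large-subunit counts: 8 genes fell without Foxo1ff 2 and 9 without Foxo1dd 3, and 3 rose without Foxo1ff 1.

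Mrpl21 (chr19:3282901-3292837, plus strand), with a bacterial homolog, had the largest change of all 78 members. It was at 144, 147 and 156 FPKM in Foxo1ff and at 56.2, 63.1 and 45.0 FPKM in Foxo1dd (-1.44 ± 0.14, limma adjusted p = 3.24e-05). Even the highest Foxo1dd sample was far below the lowest control. Mrpl50 (chr4:49512596-49521093, minus strand), a mitochondria-specific protein, went from 48.7, 54.1 and 58.1 FPKM to 28.2, 28.9 and 26.1 FPKM (-0.93 ± 0.12, limma adjusted p = 0.000177). Mrpl40 (chr16:18872018-18876862, minus strand), also mitochondria-specific, went from 97.3, 126 and 110 FPKM to 48.0, 74.1 and 53.1 FPKM (-0.93 ± 0.17, limma adjusted p = 0.00168). The Foxo1dd 2 sample was the highest of its group for Mrpl40, yet below every control. Mrpl35, Mrpl28 and Mrpl38 completed the 6 largest falls of the subunit. Mrpl35 was at 15.4, 15.8 and 16.3 FPKM against 8.91, 9.85 and 6.89 FPKM (-0.83 ± 0.15), and Mrpl28 at 63.3, 78.8 and 75.1 FPKM against 41.6, 42.0 and 42.3 FPKM (-0.77 ± 0.12). Mrpl38 was at 56.2, 56.9 and 48.6 FPKM against 39.7, 30.2 and 37.3 FPKM (-0.59 ± 0.14). None of the 6 had overlapping groups.

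Among large-subunit proteins with a known place or role, results were mixed. Mrpl3 lies near the centre that forms peptide bonds. It was at 34.0, 42.7 and 43.7 FPKM in Foxo1ff and at 30.7, 26.9 and 22.2 FPKM in Foxo1dd (-0.58 ± 0.16, limma adjusted p = 0.0113, but 0.0526 after median-of-ratios scaling, 0.0563 after quantile normalization and 0.0513 without Foxo1ff 2). It shares exon bases on the same strand with the predicted gene Gm38077. Mrpl37, a mitochondria-specific protein, fell by 0.38 on the log2 scale (means 48.8 ± 5.75 and 37.1 ± 0.849 FPKM, SD, n = 3 each; limma adjusted p = 0.0259, but 0.105 after median-of-ratios scaling, 0.0881 after quantile normalization, 0.0704 without Foxo1ff 1, 0.127 without Foxo1ff 2 and 0.0662 without Foxo1dd 3). The stalk that recruits translation factors is built from Mrpl10, Mrpl11 and Mrpl12. None of the 3 passed the test, with changes of -0.25, -0.01 and -0.32. Among the alternative settings, Mrpl10 was called lower with array weights, and Mrpl12 with array weights and without Foxo1ff 1. Mrpl12, whose start region is printed above, was at 98.6, 136 and 149 FPKM against 96.5, 118 and 89.2 FPKM, overlapping ranges (limma adjusted p = 0.149). Mrpl4 (means 30.5 and 30.9 FPKM) and Mrpl45 (19.1 and 18.6 FPKM), both near the exit tunnel, and Mrpl58, a hydrolase that frees stalled chains (12.8 and 12.8 FPKM), had overlapping groups and adjusted p of 0.911, 0.861 and 0.998. Mrpl39 (34.1 and 36.1 FPKM), Mrpl41 (16.6 and 21.2 FPKM) and Mrpl44 (29.2 and 26.8 FPKM), the last related to RNase III enzymes, did not pass either, with adjusted p of 0.597, 0.0886 and 0.434. Mrpl41 was called higher after median-of-ratios scaling (0.49, limma adjusted p = 0.0386) and after quantile normalization. Mrpl52, the most abundant large-subunit gene, was at 175, 207 and 221 FPKM in Foxo1ff and at 192, 202 and 183 FPKM in Foxo1dd (limma adjusted p = 0.717).

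The 3 largest rises of the large subunit were those of Mrpl19, Mrpl48 and Mrpl24. Mrpl19 (chr6:81957851-81965958, minus strand), with a bacterial homolog, was at 7.03, 7.08 and 6.34 FPKM in Foxo1ff and at 10.4, 10.4 and 10.8 FPKM in Foxo1dd (0.56 ± 0.13, limma adjusted p = 0.00603). Mrpl48, the least abundant member of the subunit, was at 3.56, 4.92 and 4.28 FPKM against 6.94, 6.73 and 6.21 FPKM (0.54 ± 0.16, limma adjusted p = 0.0173, but 0.0606 without Foxo1ff 1). Mrpl24 (chr3:87919506-87923672, plus strand), homolog of a protein at the tunnel exit, was at 55.8, 58.8 and 61.3 FPKM against 77.2, 96.5 and 81.3 FPKM (0.52 ± 0.12, limma adjusted p = 0.00559). For all 3 genes every Foxo1dd sample was above every control. Exons of Mrpl21, Mrpl24, Mrpl19 and Mrpl48 each overlap another gene on the opposite strand, which was the case for 28 of the 78 members.

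**Figure D2:**
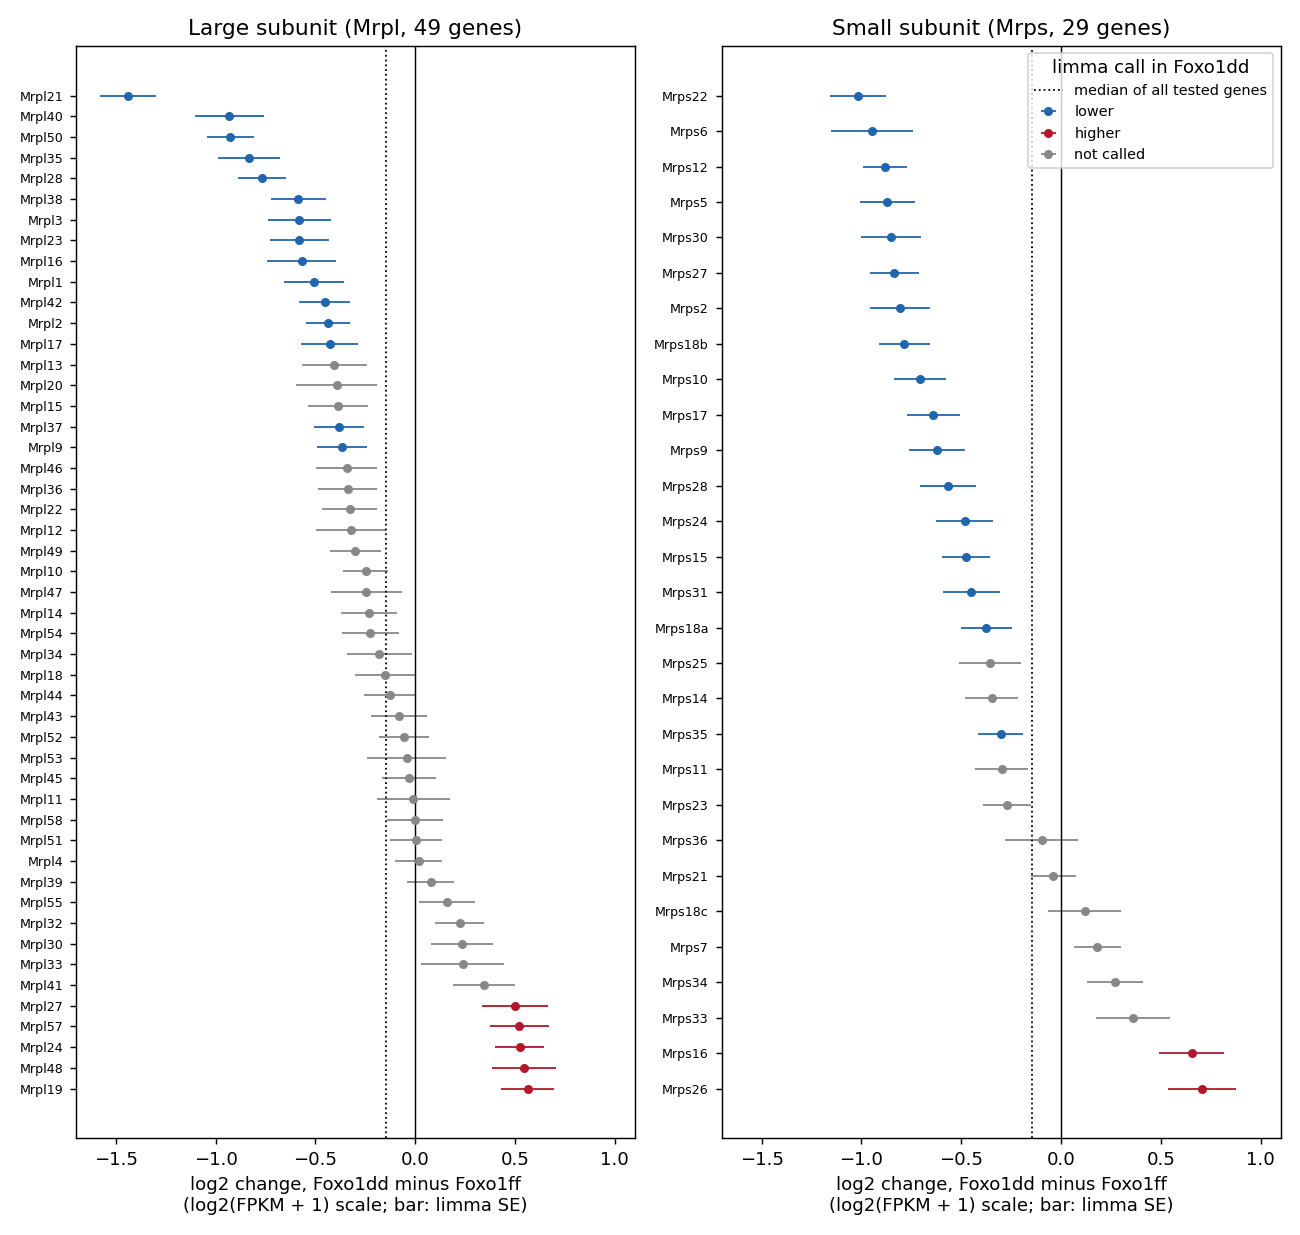
Log2 change (Foxo1dd minus Foxo1ff, log2 of FPKM + 1) of each of the 78 members with its limma standard error as a bar, large and small subunit apart, coloured by call, with a dotted line at the median of all tested genes. In the small subunit 17 of 29 genes fell and 2 rose, and in the large subunit 15 of 49 fell and 5 rose.

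The authors' scaling between libraries is not given in the sources used here, so counts were also taken after median-of-ratios scaling. That scaling moved the median change of all tested genes from -0.15 to -0.01, and 28.9% of them then fell and 27.9% rose. The small subunit had 14 falls and 2 rises and a median of -0.30. The large subunit had 8 falls and 7 rises and a median of -0.10. Called under both scalings were 14 falls and 2 rises in the small subunit, and 8 falls and 5 rises in the large. For counts by bacterial homolog, members were grouped by symbol and Mrps36 was left out. With the FPKM as deposited, 12 of 18 small-subunit genes with bacterial homologs fell (median -0.52) and 10 of 30 large-subunit ones (median -0.32). After median-of-ratios scaling these counts were 10 and 5. Among mitochondria-specific ones, 5 of 10 fell in the small subunit (median -0.33) and 5 of 19 in the large (median -0.08) as deposited, and 4 and 3 after scaling. Mrps30 and Mrps18a were then counted in the large subunit, where their products sit, with Mrps36 again left out. On that count 15 of 26 small-subunit genes fell (57.7%) and 17 of 51 large-subunit genes fell (33.3%) as deposited, and 13 and 9 after scaling. Whether the subunits differ was not tested, since genes of a subunit are not replicates.

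**Figure D3:**
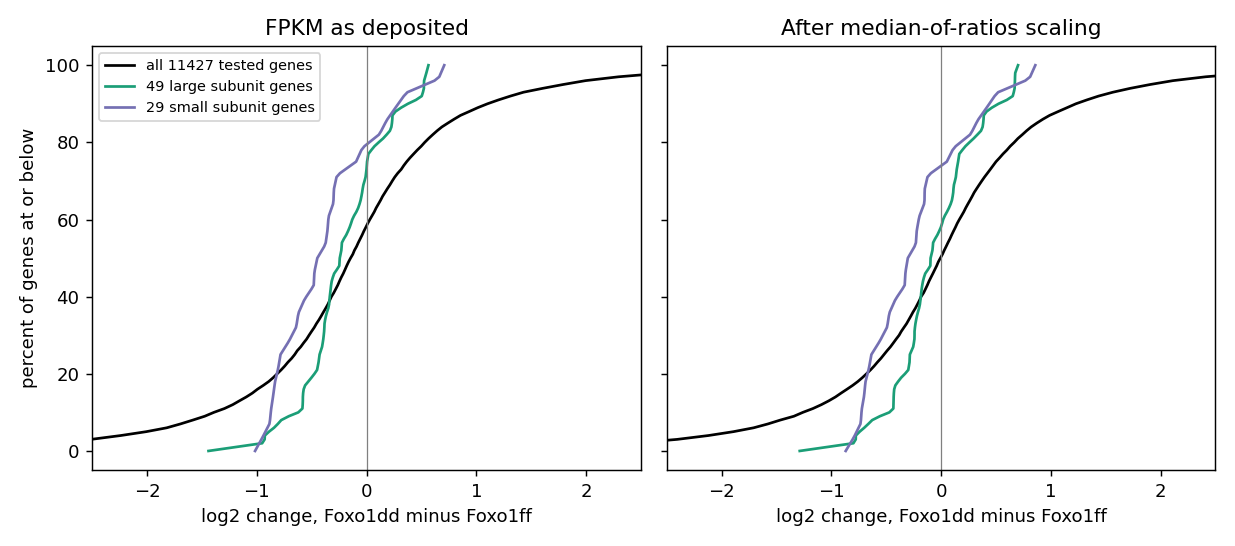
Cumulative distribution of the log2 change for all 11427 tested genes and for each subunit, with the deposited FPKM and after median-of-ratios scaling. The small-subunit curve has its median at -0.45 and -0.30 under the 2 scalings, and the large-subunit curve at -0.24 and -0.10.

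Summed over members, the large subunit came to 2238, 2720 and 2740 FPKM in Foxo1ff against 2130, 2389 and 2053 FPKM in Foxo1dd, which overlapped. The small subunit came to 1442, 1630 and 1591 FPKM against 1196, 1289 and 1075 FPKM, which did not. Total FPKM was also lower in every Foxo1dd sample. As a share of that total, the small subunit came to 0.2351, 0.2442 and 0.2450% in Foxo1ff against 0.2152, 0.2335 and 0.1904% in Foxo1dd. Those shares did not overlap, but Foxo1ff 1 and Foxo1dd 2 were close, and without Mrps6 the shares overlapped. The small-subunit sums without Mrps6 were 1149, 1281 and 1256 FPKM in Foxo1ff against 1003, 1082 and 957 FPKM in Foxo1dd, still apart. The small sum divided by the large gave 0.644, 0.599 and 0.581 for the Foxo1ff samples, all above the 0.562, 0.540 and 0.524 of the Foxo1dd samples. That separation rested on Mrps6: without it the ratio was 0.513, 0.471 and 0.458 against 0.471, 0.453 and 0.466, with overlapping groups. Within a group, the median coefficient of variation was 11.3% (Foxo1ff) and 10.7% (Foxo1dd) in the large subunit. In the small subunit it was 8.89% and 9.74%, and over all tested genes 12.4% and 15.998%. The levels compared are unlike: median Foxo1ff means were 44.3 FPKM (large subunit), 40.7 FPKM (small subunit) and 14.5 FPKM (all tested genes). Levels in Foxo1ff ran from 4.25 FPKM (Mrpl48) to 201 FPKM (Mrpl52) in the large subunit and from 5.45 FPKM (Mrps25) to 326 FPKM (Mrps6) in the small. Over the members, mean levels in the 2 genotypes kept nearly the same order in the large subunit (Spearman 0.942 over 49 genes) and less so in the small (0.797 over 29 genes). Those values share libraries and gene lengths and are a description.

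Other proteins of mitochondrial translation were read from lists chosen by function, and their counts stand beside the 34.2% of all tested genes that fell and the 22.2% that rose. Of 5 further proteins of the mitochondrial ribosome that carry other symbols, 3 fell and 0 rose at limma adjusted p under 0.05. Without adjustment the same 3 had p under 0.05, and after median-of-ratios scaling 2 fell and 0 rose. Ptcd3, which sits on the small subunit, went from 30.4 ± 3.72 to 17.0 ± 2.91 FPKM (-0.81, limma adjusted p = 0.00211) and Chchd1 from 73.0 ± 9.90 to 48.9 ± 4.75 FPKM (-0.57, limma adjusted p = 0.00649; SD, n = 3 each). Of 27 assembly factors, 9 fell (33.3%, near the share of all tested genes) and 2 rose (7.41%), with the same counts after median-of-ratios scaling. Noa1, a GTPase of small-subunit assembly, went from 32.6 ± 2.40 to 11.5 ± 0.905 FPKM (-1.43, limma adjusted p = 2.00e-05), and Mtg1, a GTPase of large-subunit assembly, from 25.8 ± 2.06 to 10.8 ± 1.38 FPKM (-1.18, limma adjusted p = 0.000102; SD, n = 3 each). Both estimates were larger in size than that of any member except Mrpl21. Of 15 translation factors, 6 fell (40%) and 3 rose (20%), which became 5 and 5 after median-of-ratios scaling and after quantile normalization. Tufm, the elongation factor that delivers aminoacyl-tRNA, went from 75.7 ± 3.51 to 35.2 ± 5.18 FPKM (-1.09, limma adjusted p = 0.000129), while Taco1, an activator of Cox1 translation, rose from 9.22 ± 0.831 to 25.4 ± 3.95 FPKM (1.36, limma adjusted p = 7.77e-05; SD, n = 3 each).

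Of 14 tested genes for mitochondrial transcription and biogenesis, 7 fell (50%) and 1 rose (7.14%), and 6 fell and 1 rose after median-of-ratios scaling. Myc, a growth regulator, went from 139, 92.7 and 83.1 FPKM to 7.84, 1.98 and 6.17 FPKM (-4.17, limma adjusted p = 1.97e-05), and Twnk, the mitochondrial DNA helicase, from 19.6 ± 2.46 to 6.09 ± 1.24 FPKM (-1.55, limma adjusted p = 8.22e-05; SD, n = 3 each). Of the other factors whose motifs were searched above, Nrf1, Gabpa and Yy1 did not pass the test. Nrf1 had means of 5.43 and 4.42 FPKM (limma adjusted p = 0.201), Gabpa of 18.6 and 18.6 FPKM (adjusted p = 0.972) and Yy1 of 69.1 and 60.9 FPKM (adjusted p = 0.182). Counted by gene, 8 of 29 members that fell had the ETS motif in a promoter window, as had 5 of 6 that rose and 13 of 34 that were not called. The same counts for NRF1 were 3, 2 and 8, and for YY1 6, 0 and 2. For the E-box they were 2, 0 and 3, and for the forkhead motif 1, 0 and 1. Genes with more windows have more chances of a match, and the 6 that rose had 10 windows. For comparison, 44 of 84 tested cytosolic ribosomal protein genes fell and 1 rose (median -0.43), and 16 fell and 1 rose after median-of-ratios scaling. Of 76 tested respiratory chain genes, 15 fell and 13 rose (median 0.02), which became 6 and 18 after that scaling. Both of these lists were taken by symbol, and the 44 falls included Rps19bp1, by name a binding protein of Rps19.

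Many members start head to head with another gene. In GENCODE M21, 33 of the 78 (42.3%) had a gene on the opposite strand whose start lay within 1000 bases, against 1854 of 10916 tested protein-coding genes (17.0%). In 29 cases the partner was tested. Both genes fell in 3 cases and both rose in 0. They were called in opposite directions in 3, the member alone was called in 5, the partner alone in 11 and neither in 7. Over all tested genes 56.4% were called (34.2% lower and 22.2% higher), and no such counts were made for head-to-head pairs of other genes. Mrpl46 and Mrps11 are each other's partner and count in both directions. The examples that follow were chosen after their values were seen. The pairs in which both fell were Mrpl21 with Ighmbp2 (13.5 to 5.16 FPKM, limma adjusted p = 0.000127), Mrpl40 with Hira, a histone chaperone (28.7 to 13.7 FPKM, adjusted p = 0.000323), and Mrps27 with Ptcd2 (33.5 to 25.7 FPKM, adjusted p = 0.0474), whose exon-free stretch between the starts is printed above. Mrpl51 had means of 40.7 and 40.9 FPKM while Ncapd2, a condensin subunit starting 100 bases away, went from 10.5 to 1.82 FPKM (-2.01, limma adjusted p = 4.71e-05). Mrpl57 rose from 19.8 to 28.6 FPKM while Ska3, a kinetochore protein gene starting 49 bases away, went from 4.71 to 0.283 FPKM (-2.12, limma adjusted p = 0.000159). The plot of members against their head-to-head partners shows that partners had the wider range of changes. Over all tested genes the 5th and 95th percentiles of change were -2.01 and 1.79.

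**Figure D4:**
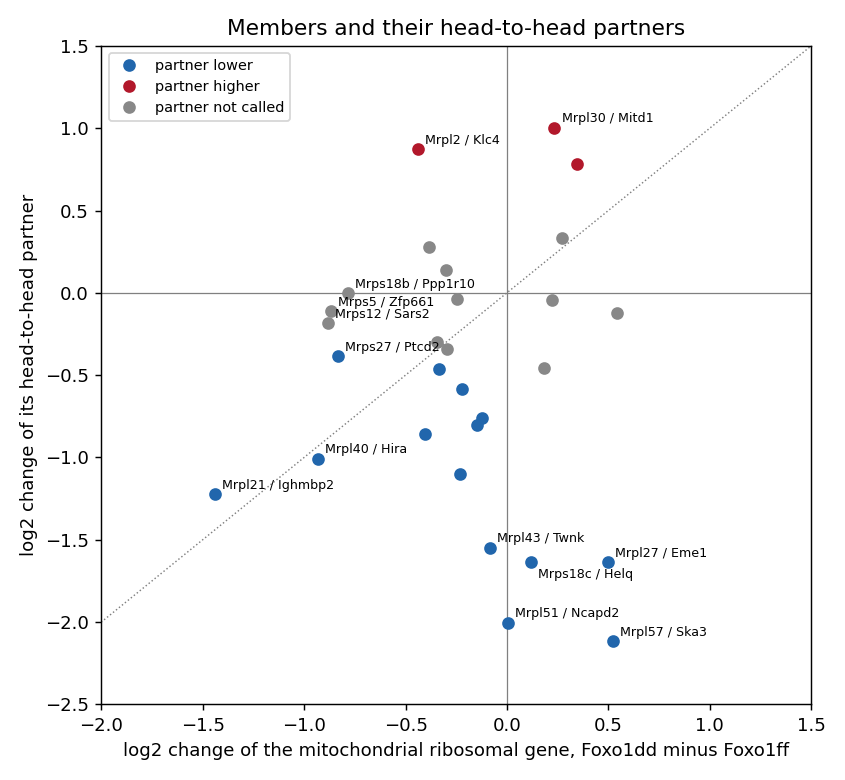
Log2 change of each member (horizontal axis) against that of its tested head-to-head partner (vertical axis), each the difference of Foxo1dd from Foxo1ff in log2(FPKM + 1). Partner changes reach -2.12 (Ska3) and 1.00 (Mitd1), while member changes lie between -1.44 (Mrpl21) and 0.54 (Mrpl48).

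Foxo1, the targeted gene, was at 111 to 160 FPKM in Foxo1ff and at 0.942 to 1.72 FPKM in Foxo1dd. Pgr was at 1.64 to 2.44 FPKM and 28.3 to 36.2 FPKM. No member lay within 12.1 Mb of Pgr or 19.5 Mb of Foxo1. Summed over 16 epithelial markers the level was 3702 to 4901 FPKM in Foxo1ff and 4895 to 5844 FPKM in Foxo1dd, and 7 of 15 tested rose and 3 fell. Over 7 glandular markers it was 51.8 to 210 FPKM against 1.04 to 6.54 FPKM (Ttr at 0 in all samples), and 3 of 4 tested fell and 1 rose. Spink1, picked after its values were seen, made up most of the Foxo1ff glandular sum (means 93.3 and 0.124 FPKM). Foxa2, below the minimum, had overlapping groups (0.943 and 0.644 FPKM), and the marker that rose was Lif (0.269 to 3.02 FPKM). Over 11 stromal markers the summed level was 35.6 to 40.4 against 40.8 to 55.6 FPKM, and 3 of 9 tested rose. Over 12 leukocyte markers it was 49.6 to 96.4 against 80.2 to 96.8 FPKM, but 6 of 9 tested fell (median change -1.18) and 2 rose. Of markers picked after their values were seen, Laptm5 made up most of the Foxo1dd sum (4.04 to 63.2 FPKM), while Ptprc, the pan-leukocyte marker, went from 3.59 to 0.294 FPKM and Lyz2 from 43.5 to 7.51 FPKM. Over 7 endothelial markers, none of which reached the minimum, it was 1.36 to 1.47 against 1.79 to 3.79 FPKM. The part of these other cells in the members' changes was not tested. Total FPKM was 613186 to 667499 in Foxo1ff and 552190 to 564628 in Foxo1dd. Foxo1dd 2 had the fewest genes above 0 (13995, against 15474 to 16062 in the others) and, at 40296 FPKM, the most Rn45s, the precursor of ribosomal RNA (23715 to 31304 FPKM elsewhere). Without that library, 15 small-subunit and 20 large-subunit genes fell. From the steps between low values, a single read corresponded to 0.0102 to 0.01355 FPKM at a length of 1 kb, least certainly in Foxo1dd 2, where 26 short genes gave the step. With GENCODE exon lengths, the smallest read number estimated on that scale for any member was about 1050 (Mrpl41 in Foxo1ff 1). The lengths behind the deposited FPKM are not given, so that number is approximate.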

How the data were processed

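The deposited table holds 1 FPKM value per gene and sample, made by the authors before deposit and used as deposited. Per the submitters' processing notes, the tools were DESeq2 1.12.4, edgeR 3.28.0, STAR 2.5.2b and, of the Subread package, featureCounts 1.5.0-p1, with build mm10; no roles are stated. Not given in the sources used here are the strand setting, the gene models and their lengths, how multiply matching reads were treated, and whether libraries were scaled further.

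Every gene with a mean of at least 1 FPKM was fitted on the log2(FPKM + 1) scale by limma 3.58.1, run in R 4.3.3 (moderated with a mean-variance trend, genotype as the only term), and p-values were adjusted over all 11427 genes by the Benjamini-Hochberg method. This scale understates changes of low genes. Folds are ratios of mean FPKM. The scripts were tested on simulated data. Exact permutation of 3 and 3 samples was not used, as its smallest p is 0.1.

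Members, lists, tests and the naming rule were chosen with earlier results of these data known. The rule took, in each subunit, the 6 largest falls and 3 largest rises among called genes, the highest and lowest levels and members with a known role, then the 2 smallest p-values in each other mitochondrial list, Foxo1 and Pgr. All 78 symbols matched GENCODE M21 (GRCm38). Alternatives were 2 pseudocounts, 2 filters, 2 scalings, 3 other limma settings, a replicate block and leaving out each sample.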

Additional observations from a re-analysis of the deposited data

How the results depend on the processing

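Across 16 alternative settings no called member changed direction. Calls held under all 16 for 12 of 17 small-subunit falls, 2 of 2 small-subunit rises, 7 of 15 large-subunit falls and 3 of 5 large-subunit rises. Small-subunit falls numbered 12 to 17 with 1 sample left out. Large-subunit falls numbered 8 to 20, with 3 to 5 rises. Large-subunit falls came to 8 after median-of-ratios scaling and 26 with array weights. The median change of all tested genes was -0.0253 with no filter, -0.00678 after median-of-ratios scaling and -0.00405 after quantile normalization. Those 2 scalings gave -0.10 and -0.11 for the large subunit and -0.30 and -0.31 for the small. Among members not called, 11 of 29 in the large and 3 of 10 in the small subunit changed sign in some setting. Under median-of-ratios scaling and quantile normalization the changes were 0.13 and 0.12 for Mrpl11, 0.0224 and 0.0271 for Mrpl44, 0.11 and 0.10 for Mrpl45, 0.10 and 0.0925 for Mrpl52, 0.14 and 0.12 for Mrpl58, and 0.0518 and 0.0373 for Mrps36. With array weights they were -0.00695 for Mrpl4 and -0.0196 for Mrps18c. With 1 sample left out, Mrpl11 ranged from -0.21 to 0.10, Mrpl4 from -0.0261 to 0.0784, Mrpl45 from -0.0921 to 0.0519, Mrpl52 from -0.15 to 0.0140, Mrpl58 from -0.0929 to 0.0565, Mrps18c from -0.0235 to 0.28 and Mrps36 from -0.25 to 0.0850. The cause was not tested. Residuals of same-numbered samples correlated at 0.123, 0.107 and -0.133, and not every sample correlated best with its own number. The labels do not say whether same-numbered samples were paired, and so few values cannot decide it. With the replicate block 16 small-subunit and 13 large-subunit genes fell, 2 and 5 rose, and over all genes 3724 fell and 2417 rose. Reading the subunit from where the protein sits was chosen after seeing the data.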
